A study of Caenorhabditis elegans with 4 samples.

Results

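The genes described here encode heat shock proteins and DnaJ proteins of Caenorhabditis elegans, and they were chosen by name. All nuclear protein-coding genes of the WBcel235 annotation (the assembly ce11) whose name starts with hsp- or dnj- were taken, which gave 51 of 19973 genes. By name they fall into 13 small heat shock genes, 5 Hsp70 genes, 4 other hsp genes and 29 DnaJ genes. The small heat shock genes are the hsp-12, hsp-16, hsp-17, hsp-25 and hsp-43 genes. The names hsp-16.1 and hsp-16.48 are each carried by 2 genes in Ensembl release 115, and the second copies are called hsp-16.11 and hsp-16.49 here, as RefSeq names them by position.

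The study mapped where EGL-27 sits on chromatin in whole third-stage (L3) larvae of mixed sex, by chromatin immunoprecipitation and sequencing (ChIP-seq). Its 4 biological replicates form 1 group, all of strain OP177 (unc-119(ed3) III; wgIs177), in which the transgene supplies EGL-27 with GFP and FLAG fused to its C-terminus. The protein belongs to the MTA family, carries a zinc finger of the GATA type and is related to subunits of the NuRD chromatin remodelling complex. The labels name no heat shock or other stress, nor a second protein, strain or condition, so the genes were compared with all other protein-coding genes and the families with each other.

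Heat shock proteins are molecular chaperones, which bind unfolded or misfolded proteins and keep them from aggregating. Hsp70 proteins do so in cycles of ATP binding and hydrolysis: DnaJ proteins, also called Hsp40, bring substrates and start the hydrolysis, and nucleotide exchange factors such as Hsp110 end the cycle. Small heat shock proteins hold unfolded proteins without ATP, Hsp90 matures signalling proteins, and Hsp60 is the chaperonin of mitochondria. Many of these genes are induced on stress by the transcription factor HSF-1, which binds heat shock elements, runs of alternating 5-base units NGAAN and NTTCN. The promoters of the hsp-16, hsp-4 and hsp-6 genes are widely used in the worm as reporters of heat, endoplasmic reticulum and mitochondrial stress.

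The data are the authors' peak lists: one for each replicate, a pooled list called on all 4 replicates, and a final list. The final list was made with the IDR (irreproducible discovery rate), which asks whether a peak keeps its place from one replicate to the next. A gene was given every summit, the highest point of a peak, that lay between 1000 bp upstream and 200 bp downstream of its annotated 5′ end, called its window below. Peaks were ranked within a list by the authors' signal value, with rank 1 the strongest. There were 28056 pooled peaks and 814 IDR peaks, and all 814 were among the 814 strongest of the pooled list. Having an IDR summit is thus the same as passing a cutoff on pooled signal. The lists of replicates 1 to 4 held 30000, 6602, 19304 and 12990 peaks, of which the 814 strongest are called top peaks here. The read depth behind the peaks is unknown. No ChIP-seq of another protein was analysed here, so peaks particular to EGL-27 cannot be told apart from loci where peaks of many factors are called.

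Within the windows, the strongest EGL-27 summits lay at genes of DnaJ, Hsp70, Hsp110 and Hsp60 proteins. The windows of the small heat shock genes held none of the IDR summits. An IDR summit of rank 123 lay inside hsp-90 but outside its window, and is not counted below. An IDR summit lay in the window of 9 of the 51 genes (17.6%), where 2.56% of all protein-coding genes had one and 503 of the 19922 other genes did (2.52%). The 9 were 2 of 5 Hsp70 genes (hsp-1 and hsp-3), 2 of 4 other hsp genes (hsp-110 and hsp-60) and 5 of 29 DnaJ genes (dnj-13, dnj-19, dnj-14, dnj-12 and dnj-9). The count was 0 of the 13 small heat shock genes, too few genes to set it apart from the share of all genes. A summit of any strength in the pooled list lay in 27 of the 51 windows (52.9%), against 37.5% of all genes. Among the small heat shock genes it was 3 of 13 (23.1%), with 4 of the 13 windows made almost wholly of repeated sequence. Of those 27 genes, 33.3% had an IDR summit, against 6.84% of all genes with a pooled summit in the window. When each summit was given only to the gene with the nearest 5′ end, 5 of the 51 genes (against 1.91% of all genes) kept an IDR summit. With the 407 strongest IDR peaks alone the number was also 5.

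The sequences below show the ground on which these summits lie. They were read from WBcel235 (ce11) on the strand of the gene. The first 5 are 101 bases with the summit in the middle, from hsp-1 (chrIV:17278562-17278662, plus strand), hsp-110 (chrIII:8447106-8447206, minus strand), dnj-13 (chrII:11545425-11545525, plus strand), hsp-60 (chrIII:1619111-1619211, plus strand) and hsp-90 (chrV:14685695-14685795, plus strand). They are shown because they include the 4 strongest summits in the windows and the summit inside hsp-90. The last runs from the 5′ end of hsp-16.2 to just past that of the divergent gene hsp-16.41 (chrV:1804957-1805198, plus strand), which holds the strongest pooled summit in the window of any small heat shock gene. Capitals mark heat shock element pairs (GAANNTTC or TTCNNGAA) and GAGA repeats (GAGAGAG on either strand) in the first 5, and arrays of 3 alternating units in the last.
hsp-1: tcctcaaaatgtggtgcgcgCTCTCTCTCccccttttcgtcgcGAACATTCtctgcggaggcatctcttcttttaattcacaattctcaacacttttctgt
hsp-110: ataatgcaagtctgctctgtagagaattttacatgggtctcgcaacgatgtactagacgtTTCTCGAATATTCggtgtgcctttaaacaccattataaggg
dnj-13: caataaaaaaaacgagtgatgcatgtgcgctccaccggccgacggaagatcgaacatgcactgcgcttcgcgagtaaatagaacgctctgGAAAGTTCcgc
hsp-60: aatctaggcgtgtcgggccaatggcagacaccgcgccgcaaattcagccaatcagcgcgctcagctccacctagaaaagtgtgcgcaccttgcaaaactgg
hsp-90: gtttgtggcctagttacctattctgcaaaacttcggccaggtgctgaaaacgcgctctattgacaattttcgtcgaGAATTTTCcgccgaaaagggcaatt
hsp-16.2 to hsp-16.41: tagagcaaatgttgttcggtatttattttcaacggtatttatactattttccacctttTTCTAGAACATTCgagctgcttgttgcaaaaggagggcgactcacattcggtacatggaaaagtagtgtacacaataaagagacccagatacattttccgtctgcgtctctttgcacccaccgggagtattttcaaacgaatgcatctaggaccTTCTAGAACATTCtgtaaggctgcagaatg
At hsp-110 the capitals are themselves an array of 3 units, 16 bp from the summit, and the 2 arrays between hsp-16.2 and hsp-16.41 are the same word in the same direction.

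**Figure D1:**
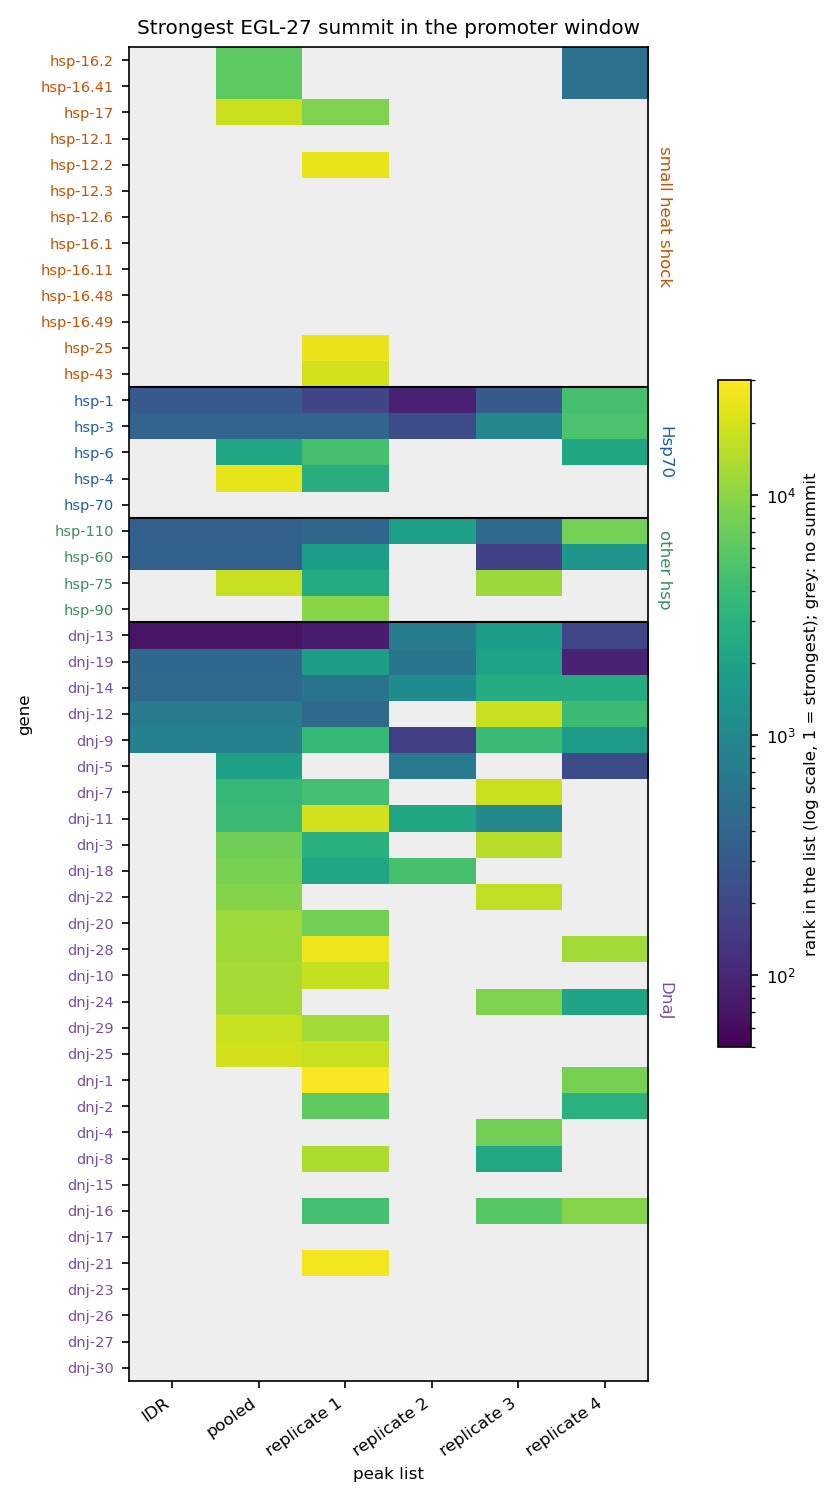
Rank of the strongest EGL-27 summit in the window of each of the 51 genes (rows, grouped by family, name colour by family) in the 6 peak lists (columns). Colour gives the rank on a log scale, dark being strong, and grey means that no summit lay in the window. The 9 genes with an IDR summit have a top summit in 1 to 3 of the replicate columns, and most small heat shock rows are grey throughout.

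Among the Hsp70 genes, hsp-1 encodes the constitutive cytosolic Hsp70. Its IDR summit (IV, peak 17278427 to 17278796, rank 296) lay 347 bp upstream of the 5′ end. The strongest summit in its window ranked 191, 91, 318 and 4573 in replicates 1 to 4. Replicates 1, 2 and 3 thus placed it among their top peaks, and replicate 4 much lower. The next coding 5′ end, that of the C-type lectin gene clec-196, was 1656 bp from the summit, and the window of hsp-1 was the sole coding window to hold it, although the non-coding RNA gene F26D10.23 lay 110 bp away.

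The endoplasmic reticulum has a pair of Hsp70 proteins, HSP-3 and HSP-4, the worm BiP proteins. The IDR summit of hsp-3 (X, peak 6091916 to 6092285, rank 392) lay 23 bp downstream of its 5′ end, within the gene. Its strongest summits ranked 401, 219, 977 and 4866 in replicates 1 to 4, so replicates 1 and 2 placed it among their top peaks. That of replicate 4 lay 589 bp upstream. The strongest summit of hsp-4, the copy that is strongly induced in endoplasmic reticulum stress, ranked 23906 in the pooled list, 225 bp upstream. In the replicates it ranked 2691 in replicate 1, and no summit lay in the window in replicates 2, 3 and 4.

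The mitochondrial Hsp70 gene hsp-6 had a pooled summit of rank 2161, 418 bp upstream. A stronger one, of rank 1699, lay inside the gene, 2457 bp downstream of the 5′ end and past the window. The strongest summit in its window ranked 4569 in replicate 1, 456 bp upstream, and 2255 in replicate 4, where it lay at another place, 129 bp upstream. The other two had none. The heat-inducible cytosolic gene hsp-70 had no summit in its window in any of the 6 lists. The 2 Hsp70 genes with an IDR summit were therefore the constitutive cytosolic one and one of the BiP genes. In their windows, the stress-reporter genes hsp-4 and hsp-6 had weaker summits. Outside the Hsp70 genes the stress-induced gene hsp-60 went the other way, with an IDR summit of rank 362.

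Of the other hsp genes, hsp-110 encodes the nucleotide exchange factor of cytosolic Hsp70. Its IDR summit (III, peak 8446971 to 8447340, rank 358) lay 247 bp upstream. The strongest summits in its window ranked 437, 1839, 455 and 7979 in replicates 1 to 4, and that of replicate 2 lay elsewhere, 760 bp upstream. The same IDR summit was 197 bp from the 5′ end of rpn-3, a gene of the proteasome's regulatory particle that is read the other way, so the peak cannot be given to either gene alone.

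hsp-60 encodes the mitochondrial chaperonin. Its IDR summit (III, peak 1618976 to 1619345, rank 362) lay 581 bp upstream of hsp-60 and 232 bp upstream of Y22D7AL.10, which encodes the Hsp10 partner of the chaperonin and is read the other way. The summits ranked 1752 in replicate 1, 171 in replicate 3 and 1435 in replicate 4, and replicate 2 had none. This one peak thus lies between the genes of the chaperonin and of its lid, and was a top peak in replicate 3.

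hsp-90, also known as daf-21, encodes cytosolic Hsp90, and hsp-75 a mitochondrial Hsp90. In its window hsp-90 had a summit of rank 9697 in replicate 1 and none in the other lists. An IDR summit of rank 123 (V, peak 14685560 to 14685929) lay inside the gene instead, 827 bp downstream of the 5′ end, in an intron and 415 bp upstream of the 5′ end of its second annotated transcript. Within 200 bp of it, summits ranked 501, 115 and 24 in replicates 1, 3 and 4, which are top peaks in all 3, and replicate 2 had none. The 5′ end of C47E8.4 was 260 bp away. With the 5′ end of any annotated transcript in place of that of the gene, hsp-90 joined the genes with an IDR summit and their number became 10. The strongest pooled summit at hsp-75 ranked 17419, and its summits ranked 2576 in replicate 1 and 11549 in replicate 3, outside the top peaks of both.

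Among the DnaJ genes, dnj-13 encodes a class B DnaJ protein that works with HSP-1 and HSP-110 in dissolving protein aggregates. It had the strongest summit of all 51 genes (II, peak 11545290 to 11545659, rank 70), 226 bp upstream. The summits ranked 81, 725, 1766 and 197 in replicates 1 to 4, all of them within 63 bp of the IDR summit. It was a top peak in replicates 1, 2 and 4. The summit also lay in an intron of dhgd-1 and within 2 non-coding RNA genes that both carry the name F54D5.22, and the nearest other coding 5′ end was that of F54D5.9, 647 bp away.

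dnj-19 and dnj-12 encode class A DnaJ proteins of the cytosol. The IDR summit of dnj-19 (V, peak 5505057 to 5505426, rank 419) lay 385 bp upstream, and its strongest summits ranked 1803, 606, 1981 and 92 in replicates 1 to 4. It lay 11 bp upstream of the nuclear hormone receptor gene nhr-47, read the other way. The IDR summit of dnj-12 (rank 720) lay 104 bp upstream, with mtx-1, a metaxin gene, 388 bp away on the other strand. Its summits ranked 452, 17951 and 4063 in replicates 1, 3 and 4, and replicate 2 had none.

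dnj-14 encodes the cysteine string protein of synaptic vesicles. Its IDR summit (X, peak 4711884 to 4712253, rank 461) lay 321 bp upstream, and its summits ranked 600, 1117, 2611 and 2624 in replicates 1 to 4. The gliotactin homologue glit-1 was nearer, at 210 bp on the other strand. The IDR summit of dnj-9 (II, peak 4851651 to 4852020, rank 813) was the last but one of the IDR list, 220 bp upstream of the 5′ end, and the nearest other coding 5′ end, that of T23B7.3, was 1651 bp from the summit. Its summits ranked 3625, 162, 3868 and 1615, a top peak in replicate 2 alone. With rank 813 of 814 it stands just inside the list.

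dnj-5 had no IDR summit, but its summits ranked 715 in replicate 2 and 218 in replicate 4, both top peaks, with none in replicates 1 and 3. They lay 918 and 813 bp upstream, and the pooled summit ranked 1927, 829 bp upstream. dnj-24, like hsp-90, had an IDR summit inside the gene (rank 706), 2498 bp downstream of the 5′ end in an intron. Summits within 200 bp of it ranked 6585, 2122 and 416 in replicates 1, 2 and 3. The DnaJ genes dnj-7, dnj-11, dnj-3, dnj-18, dnj-22, dnj-20, dnj-28, dnj-10, dnj-24, dnj-29 and dnj-25 had pooled summits in the window below the IDR list, from rank 3542 at dnj-7, which encodes the endoplasmic reticulum protein P58IPK, to rank 19147 at dnj-25, the auxilin gene. At dnj-11 the pooled rank was 3943. Without a pooled summit in the window, dnj-1, dnj-2, dnj-4, dnj-8, dnj-16 and dnj-21 had summits there in the lists of 1 to 3 replicates. At dnj-16 a pooled summit of rank 2329 lay inside the gene, 295 bp downstream of the 5′ end and past the window. At dnj-20 one of rank 1591 lay 4481 bp downstream of the 5′ end, likewise inside the gene. The 6 DnaJ genes dnj-15, dnj-17, dnj-23, dnj-26, dnj-27 and dnj-30 had none in the window in any list; dnj-27 encodes the endoplasmic reticulum protein ERdj5.

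Of the small heat shock genes, hsp-16.2 and hsp-16.41 shared the strongest pooled summit in a window. Outside the windows, an IDR summit lay 761 bp from the 5′ end of hsp-12.3, beyond the gene itself. hsp-25 had a stronger pooled summit inside the gene, of rank 3240 and 3093 bp downstream of the 5′ end. Inside hsp-17 lay one of rank 11511. hsp-16.2 and hsp-16.41 are divergent genes that heat induces strongly. The same pooled peak, rank 6122, lay 203 bp upstream of hsp-16.2 and 18 bp upstream of hsp-16.41. It ranked 549 in replicate 4, a top peak there, and neither window held a summit in replicates 1, 2 and 3. The 2 genes counted in replicate 4 thus rest on 1 peak. hsp-17 had a pooled summit of rank 17985, 390 bp upstream, and a replicate 1 summit of rank 8618. hsp-12.2, hsp-25 and hsp-43 had summits in the window in replicate 1 only, of ranks 24181, 24919 and 19487. The 7 others (hsp-12.1, hsp-12.3, hsp-12.6, hsp-16.1, hsp-16.11, hsp-16.48 and hsp-16.49) had none in the window in any of the 6 lists.

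The absence of peaks at 4 of those 7 genes has a limit in the genome itself. hsp-16.1 with hsp-16.48 (V, 9087293 to 9088617) and hsp-16.49 with hsp-16.11 (V, 9089280 to 9090604) are inverted copies of 1325 bp with 1325 of 1325 bases the same. Of the 30-base words in their windows, 3.5%, 0%, 0% and 6.74% occurred once in the genome, in the order hsp-16.1, hsp-16.48, hsp-16.49 and hsp-16.11. The deposited README texts name a signal track of unique reads, and do not say how reads that match several places entered the peak calls. For comparison, 97% of the words were unique at hsp-16.2 and 95.5% at hsp-16.41, and 43 of the 51 windows reached 95%. The absence of summits in the windows of hsp-12.1, hsp-12.3 and hsp-12.6 does not share the limit of the 4 copies. No window outside the hsp-16 genes was below 76.3%. Without the 4 copies, an alternative added after the values were seen, the number of genes with an IDR summit stayed 9.

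Per replicate, the share of the 51 genes with a top summit was above that of the other genes each time, and the families could not be ranked. The 51 genes had 6, 6, 3 and 5 genes with a top summit in replicates 1 to 4, or 11.8%, 11.8%, 5.88% and 9.8%. Over all protein-coding genes the shares called were 2.32%, 1.75%, 2.01% and 2.13%. The mean was 9.8% ± 2.77 for the 51 genes and 2.03% ± 0.239 for all other genes (SD, n = 4 replicates). The difference averaged 7.77 percentage points ± 2.78 (SD) and was positive in 4 of 4 replicates. It was 4.78 points when a summit counted for the nearest 5′ end alone, and 4.28 points with the 407 strongest peaks of each list. The exact two-sided sign-flip permutation test gave p = 0.125, the smallest that 4 replicates allow. All 4 came from 1 strain and shared a control, so this p speaks only for these samples. It is reached whenever all 4 differences share a sign, whatever their size.

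**Figure D2:**
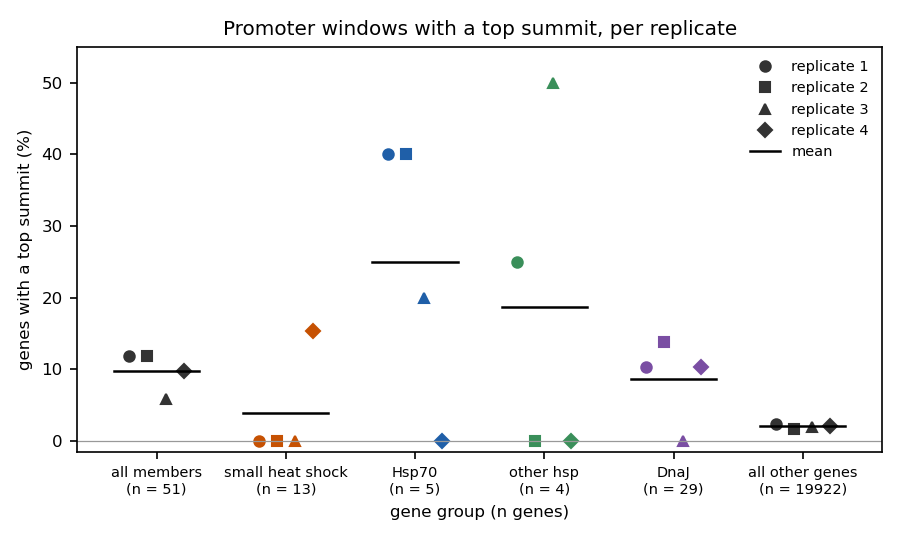
Share of genes (y axis, percent) with a top summit in the window, for the 51 genes together, each family and all other genes (x axis, with the number of genes). Each symbol is 1 replicate and each bar the mean of 4. The 51 genes lie between 5.88% and 11.8%, the other genes between 1.73% and 2.3%, and the families with few genes move in large steps.

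The Hsp70 genes had 2, 2, 1 and 0 genes with a top summit in replicates 1 to 4, the other hsp genes 1, 0, 2 and 0, the DnaJ genes 3, 4, 0 and 3, and the small heat shock genes 0, 0, 0 and 2. The mean shares were 25% ± 19.1, 18.8% ± 23.9, 8.62% ± 5.97 and 3.85% ± 7.69 (SD, n = 4 replicates) in the same order. The spread between replicates was thus as large as the differences. Hsp70 genes exceeded small heat shock genes by 21.2 percentage points (exact permutation p = 0.25, higher in 3 of 4 replicates). DnaJ genes exceeded small heat shock genes by 4.77 points (exact permutation p = 0.5, higher in 2 of 4). Single replicates moved both values. Hsp70 minus small heat shock was 14.9 points without replicate 1 and also without replicate 2. It was 21.5 points without replicate 3 and 33.3 without replicate 4. DnaJ minus small heat shock was 2.92 without replicate 1, 1.77 without replicate 2, 6.37 without replicate 3 and 8.05 without replicate 4. All 6 pairs of families were compared and each had a Benjamini-Hochberg adjusted p = 0.75 in that exact test, where none could have passed 0.05. In replicate 4 no window of an Hsp70 or other hsp gene held a top peak, while the windows of hsp-16.2 and hsp-16.41 held 1 between them.

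By gene, 6 of the 51 had a top summit in at least 2 replicates, against 1.86% of all protein-coding genes. Of these, 2 genes, dnj-13 and hsp-1, had one in 3 replicates, against 0.676% of all genes in at least 3, and hsp-110, hsp-3, dnj-19 and dnj-5 had one in 2. No member had one in all 4 replicates, where 0.195% of all genes did. A further 6 had a top summit in 1 replicate, namely hsp-60, dnj-14, dnj-12, dnj-9, hsp-16.2 and hsp-16.41, and 39 of the 51 had none in any replicate. Of all genes, 5.48% had one in at least 1 replicate. A summit of any strength lay in the window of 31, 10, 18 and 18 of the 51 genes in replicates 1 to 4, numbers that move with the length of the lists, against 37.9%, 10.3%, 26.7% and 19.6% of all genes. A summit of any strength in all 4 replicates was found at 7 genes, against 2.6% of all genes: dnj-13, dnj-14, dnj-19, dnj-9, hsp-1, hsp-3 and hsp-110. Without replicate 2, whose list is the shortest, the number with a top summit in at least 2 replicates was 3.

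The IDR summits lay about as far from the 5′ end as those of other genes. The 9 IDR summits spread over 581 bp upstream and 23 bp downstream of the 5′ end, with a median of 247 bp upstream, against 259 bp for all 512 genes with an IDR summit. At 6 of the 9 genes all 4 replicates had a summit within 200 bp of the IDR summit. For hsp-110, hsp-60 and dnj-12 the number was 3 of 4. Another coding gene's window held the same summit at 6 of the 9 (66.7%), each time on the opposite strand. Of all 512 genes with an IDR summit, 48.2% shared it. In 5 cases the member's 5′ end was the nearest (dnj-13, hsp-1, hsp-3, dnj-12 and dnj-9), and in 4 the neighbour's was (rpn-3, Y22D7AL.10, nhr-47 and glit-1).

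**Figure D3:**
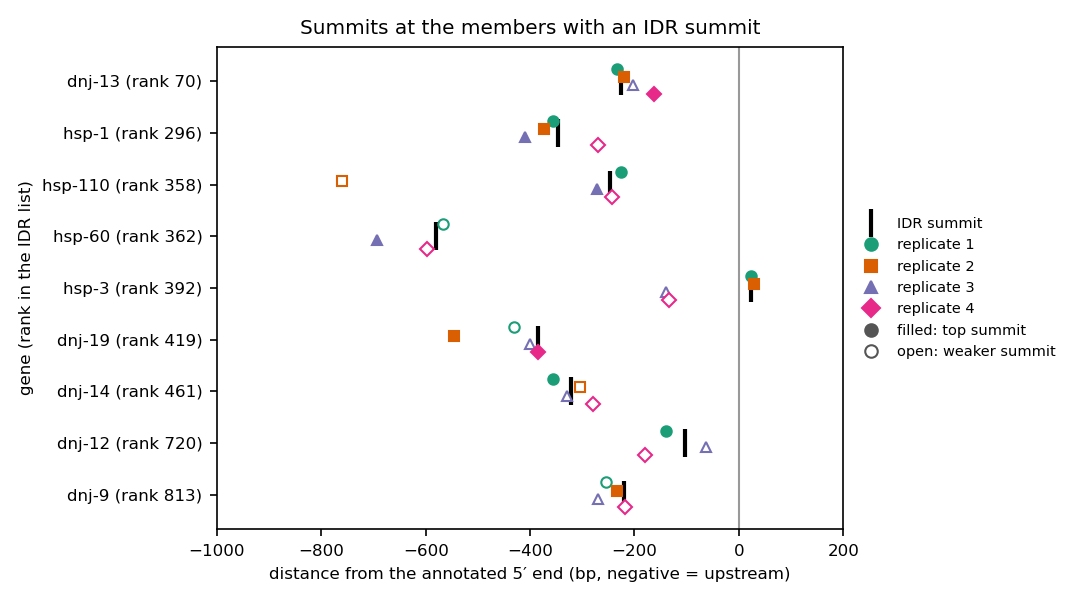
Position of summits relative to the annotated 5′ end (x axis, bp, negative is upstream) at the 9 genes with an IDR summit (rows, by IDR rank). Black bars are IDR summits, and symbols are the nearest summit of each replicate within the window, filled where it is a top peak. Most replicate summits lie within 200 bp of the IDR summit, and the replicate 2 summit of hsp-110 lies 760 bp upstream of the gene.

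Heat shock element pairs were found in most of these windows and near 3 of the 9 IDR summits. The pair GAANNTTC or TTCNNGAA is short, and one was present in 86.3% of the 51 windows and in 79.9% of all 19973 windows of the same 1201 bp. An array of 3 alternating units was present in 15 of the 51 windows (29.4%), against 7.68% of all windows. It was found at 6 of 13 small heat shock genes, all of them hsp-16 genes, at 3 of 5 Hsp70 genes (hsp-1, hsp-6 and hsp-70), at 3 of 4 other hsp genes (hsp-110, hsp-60 and hsp-90) and at 3 of 29 DnaJ genes (dnj-13, dnj-12 and dnj-24). In the shorter window of 250 bp upstream to 50 bp downstream, 21.6% of the 51 genes and 1.98% of all genes had an array. These are matches of letters on either strand, and arrays contain pairs.

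The arrays and the IDR summits coincided at some genes and not at others. Of the 15 genes with an array, 5 had an IDR summit (33.3%: dnj-13, hsp-1, hsp-110, hsp-60 and dnj-12), and of the 36 without one, 4 had an IDR summit (11.1%). Over all protein-coding genes the shares were 2.74% with an array and 2.55% without. The centre of the nearest array was 16 bp from the summit at hsp-110, 65 bp at dnj-12, 110 bp at hsp-60, 177 bp at dnj-13 and 209 bp at hsp-1. hsp-70 and the 4 hsp-16 copies had arrays and no summit in the window in any list. The windows of the 4 copies are almost wholly repeated sequence, so their missing summits say little. Without these copies, an alternative added after the values were seen, 5 of 11 genes with an array had an IDR summit (45.5%). Within 50 bp of the summit, a heat shock element pair was found at 3 of the 9 IDR summits (hsp-1, hsp-110 and dnj-13, the pairs in capitals above), against 5.24% of all 802 nuclear IDR summits, 7.18% of the 390 in promoter windows and 11.3% of all nuclear pooled summits.

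**Figure D4:**
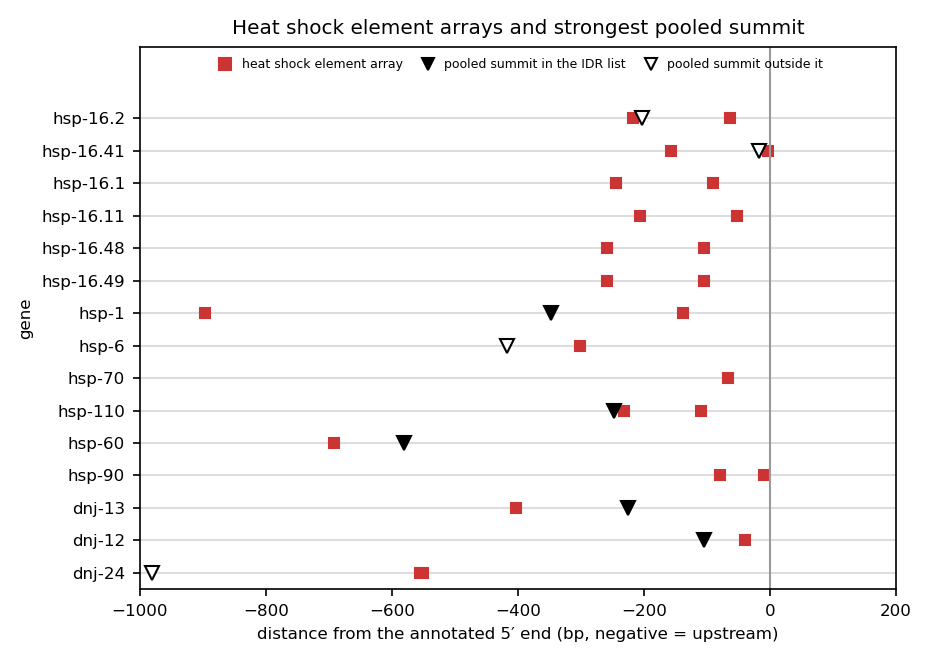
Heat shock element arrays (red squares) and the strongest pooled summit (triangles, filled where it is in the IDR list) relative to the annotated 5′ end (x axis, bp, negative is upstream) at the 15 genes with an array. The 5 filled triangles are at hsp-1, hsp-110, hsp-60, dnj-13 and dnj-12. At hsp-110 the summit lies 16 bp from an array, and the hsp-16 copies and hsp-70 have arrays with no summit. The windows of the copies are almost wholly repeated sequence, so a missing summit there says little.

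Other words were searched on both strands in the same way. GAGAGAG was in 31.4% of the 51 windows and 17% of all windows, and within 50 bp of the IDR summits of hsp-1 and hsp-3, 2 of 9, against 13.8% of nuclear IDR summits. The endoplasmic reticulum stress word TGACGTG was in 19.6% of the 51 windows and 9.42% of all. The GATA words (GATA with adenine or thymine before it and a purine after it) were in 88.2% and 93.3%, the E-box CACGTG in 11.8% and 18.4%, and the DAF-16 word GTAAACA in 15.7% and 15.1%, of the 51 windows and of all windows. Within 50 bp of the 9 IDR summits, no GATA word, E-box, GTAAACA or TGACGTG was found, and 20.2% of the nuclear IDR summits had a GATA word and 6.11% an E-box. The 101 bases around the 9 summits had a median GC content of 51.5%, against 47.5% at all nuclear IDR summits and 38.6% at all nuclear pooled summits, and the part of GC content in these word counts was not tested.

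Genes that work with these chaperones but carry other names were set beside them. Of 47 listed, 45 matched an annotated gene and 8 of the 45 (17.8%) had an IDR summit in the window, against 2.56% of all genes. The list was chosen with earlier results of these data known, and Y22D7AL.10 counts here through the peak already counted at hsp-60. Among regulators of the stress responses 1 of 10 did: xbp-1, a transcription factor of the unfolded protein response, at rank 103 and 26 bp upstream, with a top summit in 3 replicates (ranks 89, 291 and 236 in replicates 1, 3 and 4). hsf-1, the heat shock factor gene, had a single summit of rank 10550 in replicate 4.

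Of 16 genes listed with the partners of Hsp70 and Hsp90, 3 had an IDR summit. The 16 include the Hsp70 genes F44E5.4 and F44E5.5 and the small heat shock gene sip-1, chaperones under other names and without an IDR summit. The 3 with an IDR summit were unc-23, a BAG-domain gene (rank 405, top in 3 replicates), sgt-1 (rank 670) and ahsa-1, which encodes the Hsp90 activator Aha1 (rank 709). Of 8 endoplasmic reticulum folding genes 1 did, enpl-1, the GRP94 gene, at rank 609. Of 5 mitochondrial genes 2 did, Y22D7AL.10 through the peak it shares with hsp-60, and C34C12.8, which encodes a GrpE exchange factor of mitochondrial Hsp70, at rank 377. Of 6 prefoldin genes 1 did, pfd-1, at rank 549. When a summit counted for the nearest 5′ end alone, 5 of the 45 had one.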

How the data were processed

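Whole L3 larvae of 4 biological replicates were assayed by ChIP-seq. By the README texts deposited with the lists, each replicate's alignment was set against a control to call peaks and background, the pooled list came from the 4 replicates together, and the IDR list was derived from these. Which aligner and caller were used, and at what IDR threshold, is not given in the sources used. Each peak carries a deposited score, the authors' signal value, of unknown scale; it ranked peaks within one list and was not compared between lists. A −log10 q-value was deposited too, 2.22 for every IDR peak, and was left unused. The authors' summit offset, added to the peak start, gave the summit. Read depth is unknown, so differences between replicate lists can come from depth, and a missing peak shows only that none was called.

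All coordinates are ce11 (WBcel235), with gene models from Ensembl release 115 and names of duplicated genes from RefSeq. Mitochondrial peaks stayed in the lists, so top peaks of replicates 2 and 3 include 29 and 23 of them. A top peak is one of the 814 strongest of its list. Shares per replicate were compared by an exact sign-flip permutation test over 4 replicates, two-sided, with Benjamini-Hochberg adjustment over the 6 pairs of families; genes are not replicates, and counts in the pooled and IDR lists carry no test. The genes, lists, words and tests were chosen with earlier results of these data known. Genes described singly were those with an IDR summit or with a top summit in at least 2 replicates, the 2 strongest pooled summits of each family, and hsp-16.2, hsp-16.41, hsp-4, hsp-6, hsp-60 and hsp-70 whatever their values. hsp-90, dnj-24 and the hsp-16 copies were singled out after their values were seen. The listed partner genes hsf-2 and daf-21 matched no annotated gene of that name. Alternatives were other windows, nearest 5′ end, any transcript, peak overlap, no mitochondrial peaks, the 407 strongest peaks, hsp-110 as an Hsp70 gene and leaving out each replicate. The window, rank and word searches were tested on simulated data. Software was Python 3.11.15, pandas 2.3.3, numpy 2.4.6, scipy 1.17.1 and matplotlib 3.10.9.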

Additional observations from a re-analysis of the deposited data

Results flagged for a closer look

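Of 13 results screened for a replicate far from the other three, 3 stood out. Such a rule picks about 1 in 20 groups of normally distributed values by chance. The values screened were ranks and small counts, so that rate need not hold here. At hsp-1 the strongest summit ranked 4573 in replicate 4, against 191, 91 and 318 in replicates 1, 2 and 3. At hsp-3 it ranked 4866 in replicate 4, against 401, 219 and 977. Replicate 4 also held the sole small heat shock genes with a top summit in the window, 2 against 0, 0 and 0, and those 2, hsp-16.2 and hsp-16.41, share 1 peak. The part of read depth or of the state of the worms in these differences was not tested.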

How the results depend on the processing

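Of 199 recomputed values, 17 counts or shares moved (counts and mean counts by over 1.5 times, shares of windows beyond their binomial interval) and 6 differences changed sign. The other 176 did neither, but differences were judged by sign and threshold alone and several changed in size: other hsp minus small heat shock, 14.9 points, was 33.7 with any transcript, 3.21 without replicate 3 and 25 without replicate 4, and DnaJ minus other hsp, −10.1 points, was −1.94 with 407 top peaks. With each summit given to the nearest 5′ end, 5 members had an IDR summit, 0 other hsp genes, 3 DnaJ genes and 5 network genes; the mean number with a top summit was 3.25, other hsp minus small heat shock −1.92 points and DnaJ minus other hsp 6.03 points. In a window of 500 bp upstream to 100 bp downstream, 1 other hsp gene had an IDR summit. With the 5′ end of any transcript, other hsp minus Hsp70 was 12.5 points. Among the 407 strongest IDR peaks, 5 members, 1 DnaJ gene and 4 network genes remained. With 407 top peaks per replicate, the mean number was 2.75 and 3 members had one in at least 2 replicates. With hsp-110 as an Hsp70 gene, 1 other hsp gene had an IDR summit and DnaJ minus other hsp was 0.287 points. Leaving out each replicate gave 3 to 5 members with a top summit in at least 2 replicates, other hsp minus Hsp70 from −18.3 (without replicate 3) to 5 points (without replicate 2), and DnaJ minus other hsp from −18.1 (without replicate 2) to 3.16 points (without replicate 3). In the window of 250 bp upstream to 50 bp downstream, 41.2% of members had a heat shock element pair, 11.8% a GAGA repeat, 47.1% a GATA word and 9.8% TGACGTG. The cause of these changes was not tested beyond the construction of each alternative. RefSeq names, which add hsp-16.20 and hsp-16.21, and leaving out the 4 hsp-16 copies were chosen after seeing the data and left 9 members with an IDR summit. No paired analysis was possible because all samples form 1 group, so no samples can be paired across groups; gene sets were compared within each replicate. Families of 4 and 5 genes, 1 strain and unknown read depth limit every family comparison.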
